A study of Homo sapiens with 6 samples.

Results

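The human mitochondrial genome was followed through all 37 rows of the count table whose gene name starts with MT-, out of 33542 rows. They comprised 12 heavy-strand mRNAs, the light-strand mRNA MT-ND6, 2 rRNAs and 22 tRNAs (14 heavy-strand and 8 light-strand). The members were chosen by name, not by their values. The libraries came from T24, an established line of bladder tumor cells, transfected with siRNA to TRAIP, the gene of an E3 ubiquitin ligase (siTRAIP), or with control siRNA (siNC), to ask what lies downstream of TRAIP in bladder cancer. Each group held 3 libraries prepared by a stranded mRNA kit, and both groups had gone through the same lipid transfection. All 3 siTRAIP libraries carry the same siRNA label. Effects of an siRNA outside its target cannot be told apart here from loss of TRAIP. One cell line was used, the labels do not give the time after transfection, and whether replicates were grown separately is not stated, so the tests weigh the spread between libraries, which could be technical alone.

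Mitochondrial DNA is a small circular genome present in many copies per cell. Both of its strands are transcribed by the nuclear-encoded polymerase POLRMT into long polycistronic RNAs, and the tRNAs that lie between most of the other genes mark where these are cut. The heavy-strand transcript carries both rRNAs and all mRNAs but one, whereas the light-strand transcript carries MT-ND6 and the remaining tRNAs. The mRNAs encode subunits of respiratory complex I (the ND genes), complex III (MT-CYB), complex IV (the CO genes) and the ATP synthase (MT-ATP6 and MT-ATP8). Heavy-strand mRNAs receive short poly(A) tails, which complete the stop codon of some of them, while human MT-ND6 mRNA is known to lack such a tail. Heavy-strand refers below to genes on the plus strand of the deposited table, and light-strand to those on the minus strand.

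The 3′ ends of 5 mRNAs show which stop codons are left unfinished by the gene itself. The last 30 bases of each transcript are given 5′ to 3′ from GENCODE v29 (GRCh38), with the final codon, or the bases left after the last whole codon, in capitals.
MT-ND6: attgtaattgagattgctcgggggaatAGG
MT-ND5: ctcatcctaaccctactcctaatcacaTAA
MT-ND4: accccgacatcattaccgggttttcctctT
MT-CYB: taattgaaaacaaaatactcaaatgggccT
MT-ND1: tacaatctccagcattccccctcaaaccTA
Of the 13 mRNAs, 6 ended in an unfinished codon, 5 of them with 1 base and MT-ND1 with 2, and all 6 were heavy-strand mRNAs. The other 6 heavy-strand mRNAs, MT-ND5 among them, ended on a whole codon, as did MT-ND6. These counts read the annotated gene ends, and the last base of MT-ATP6 is also annotated as the first of MT-CO3. MT-ND6 was G-rich, with 35.6% G and 7.05% C. The 12 heavy-strand mRNAs had the opposite composition, with 6.28% to 16.2% G and 29.5% to 36.0% C.

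The sequences of 7 tRNA genes are given because their counts departed from the other libraries in single libraries, as described further on. They lie in 2 clusters, and capitals mark bases shared with a neighbouring gene. The MT-TI gene (isoleucine tRNA, chrM:4263-4331, plus strand) and the MT-TQ gene (glutamine tRNA, chrM:4329-4400, minus strand) share 3 bases on opposite strands, and MT-TM (methionine tRNA, chrM:4402-4469, plus strand) follows them.
MT-TI: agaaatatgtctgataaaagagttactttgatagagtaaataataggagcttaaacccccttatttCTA
MT-TQ: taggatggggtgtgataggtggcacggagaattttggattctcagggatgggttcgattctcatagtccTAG
MT-TM: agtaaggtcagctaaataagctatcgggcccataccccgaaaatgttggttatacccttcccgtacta
The other cluster lies wholly on the minus strand and holds the tRNA genes for alanine (MT-TA, chrM:5587-5655), asparagine (MT-TN, chrM:5657-5729), cysteine (MT-TC, chrM:5761-5826) and tyrosine (MT-TY, chrM:5826-5891). The origin of light-strand replication is known to lie between MT-TN and MT-TC.
MT-TA: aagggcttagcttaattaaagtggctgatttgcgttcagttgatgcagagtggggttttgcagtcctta
MT-TN: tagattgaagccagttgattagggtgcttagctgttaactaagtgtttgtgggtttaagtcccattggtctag
MT-TC: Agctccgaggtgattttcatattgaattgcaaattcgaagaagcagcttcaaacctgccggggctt
MT-TY: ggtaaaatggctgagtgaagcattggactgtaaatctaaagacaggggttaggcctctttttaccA
All 37 rows had the same coordinates and strand as in GENCODE v29.

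The counts did not appear to separate the strands. Among genes that lay wholly inside the exons of a single gene on the opposite strand, the median log2 ratio of counts per length to that gene was -1.25 (207 genes). For genes inside a same-strand gene it was -2.51 (123 genes). Both spread widely, with quartiles of -3.27 and 0.33 for the opposite strand and of -4.68 and 0.13 for the same strand. Only enclosing genes with at least 6000 counts summed over the libraries were used, and the table held no row that was 0 in every library. One gene opposite GAPDH, RP5-940J5.9, was listed with 136195 counts in all. Reads over 2 genes on opposite strands may thus have been counted for both. The counting options are not given, and the part of true antisense RNA in these counts was not tested. The row of MT-ND6 therefore cannot be read as light-strand RNA alone. The mRNA of MT-ND5, whose coding end borders MT-ND6 as the coordinates 14148 and 14149 of their last bases show, is known to run on along the MT-ND6 gene, and RNA of the 2 strands cannot be told apart in that row. The tRNA rows are 59 to 75 bases long, and 15 of 22 lie within 5 bases of an mRNA or rRNA row, so a read of the neighbour that reaches into a tRNA row may count there too.

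Libraries held 39111793 to 70439496 gene counts, with the highest total in siTRAIP replicate 3. TRAIP mRNA stood at 12.5, 14.7 and 11.6 CPM (counts scaled to library size, corrected by TMM factors) in siTRAIP libraries, against 26.5, 28.3 and 28.4 CPM in siNC libraries. Of 6 epithelial and cell line markers, the keratin KRT7 was called lower, as were 5.34% of all genes tested, and the others were not called. KRT7 stood at 1158, 1192 and 1105 CPM in siTRAIP libraries, against 1315, 1301 and 1306 CPM in siNC libraries (log2 fold change -0.18, edgeR adjusted p = 0.00375). The epithelial EPCAM was low, at 1.45 to 2.09 CPM in siTRAIP and 1.08 to 1.54 CPM in siNC libraries (log2 fold change 0.39, edgeR adjusted p = 0.235). The keratin KRT19 had 18.8 to 23.2 CPM in siTRAIP and 19.6 to 21.4 CPM in siNC libraries, and KRT18 490 to 536 CPM in siTRAIP and 492 to 500 CPM in siNC libraries. The keratin KRT8 was present at 1519 to 1712 CPM in siTRAIP and 1661 to 1701 CPM in siNC libraries, and the mesenchymal VIM at 671 to 728 CPM in siTRAIP and 709 to 734 CPM in siNC libraries. Marker lists of endothelium, striated muscle and liver each summed to at most 0.314 CPM in any library, and the leukocyte gene PTPRC reached at most 0.058 CPM. The lysosomal CD68, which is also used as a macrophage marker, stood at 38.7 to 46.1 CPM in siTRAIP and 34.1 to 36.0 CPM in siNC libraries. CD68 was called higher in siTRAIP (log2 fold change 0.31, edgeR adjusted p = 0.000917), as were 7.47% of all genes tested.

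The levels of the 37 rows per length spanned a wide range, measured as RPKM, the deposited values scaled for gene length and library size, and the plot of levels along the genome shows them all. MT-ND4L, a complex I subunit gene, was highest, with 6876 ± 43.5 RPKM in siTRAIP and 7251 ± 67.9 RPKM in siNC libraries (SD, n = 3 each). MT-ATP6 followed with 5360 ± 632 RPKM in siTRAIP and 5502 ± 194 RPKM in siNC, and the complex IV subunit gene MT-CO3 with 5065 ± 339 RPKM in siTRAIP and 5424 ± 186 RPKM in siNC. MT-ATP6 and MT-CO3 did not differ beyond their spread. The MT-ND4L row is 297 bases long and shares 7 bases with MT-ND4. The level of MT-ND4 was 3784 RPKM in siTRAIP and 3577 RPKM in siNC libraries. Reads of MT-ND4 that reach into the MT-ND4L row may count there too, so its rank cannot be read as RNA abundance alone. The lowest mRNAs were MT-CYB, with 1256 ± 3.62 RPKM in siTRAIP and 1215 ± 48.1 RPKM in siNC libraries, and MT-ND6, with 2267 ± 1722 RPKM in siTRAIP and 1063 ± 141 RPKM in siNC libraries. MT-ND6 lay below MT-CYB in each siNC library, whereas in siTRAIP replicate 3 it reached 4256 RPKM. The rRNA rows were far apart: MT-RNR2, the large-subunit rRNA, had 2397 ± 34.5 RPKM in siTRAIP and 2493 ± 99.6 RPKM in siNC, while MT-RNR1, the small-subunit rRNA, had 80.8 ± 1.06 RPKM in siTRAIP and 88.2 ± 0.244 RPKM in siNC. How well the mRNA kit captured the rRNAs and MT-ND6 was not tested. Their RPKM thus cannot be read as RNA levels relative to other rows. Averaged over the 6 libraries, tRNA rows ran from 40.9 RPKM for MT-TF (phenylalanine) to 3452 RPKM for MT-TG (glycine). Because tRNA rows are short and reads of neighbouring transcripts can reach into them, these values cannot be told apart from levels of unprocessed RNA.

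**Figure D1:**
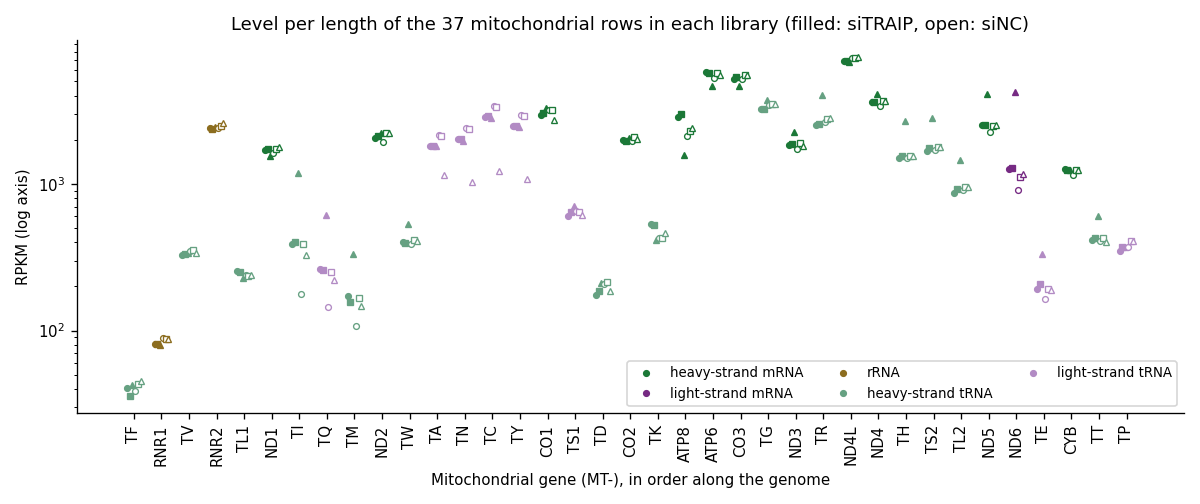
RPKM on a log axis for each mitochondrial row in each library, in order along the genome. Filled points are the 3 siTRAIP libraries and open points the 3 siNC libraries; circles, squares and triangles are replicates 1, 2 and 3. MT-ND4L is highest and MT-TF lowest, and single triangles stand away from the other libraries at MT-TI, MT-ND6 and MT-TC.

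No mitochondrial row passed an edgeR adjusted p of 0.05 in the comparison of siTRAIP with siNC (0 of 37 tested), against 12.8% of the 18685 genes tested (7.47% higher and 5.34% lower in siTRAIP). DESeq2 also called 0, and 3 rows (MT-ND4, MT-CYB and MT-TK) had an unadjusted edgeR p under 0.05, as did 24.8% of all genes tested. The median log2 fold change was 0.11 over the 37 rows and -0.0017 over all genes, and 31 rows lay above 0. CPM did not overlap between the groups for 11 rows, as for 29.1% of all genes. Of these 11, 10 were higher in siTRAIP, where 14.8% of all genes were, and MT-RNR1 was lower, as 14.4% of all genes were. The absence of calls depended on the settings. With edgeR's non-robust dispersion estimate 5 rows passed, all higher in siTRAIP, namely MT-TI, MT-TQ, MT-TM, MT-ND6 and MT-TE, where 12% of all genes were called. Each of these 5 rows was highest in siTRAIP replicate 3. With every gene with a count above 0 kept, 4 other rows passed, all higher in siTRAIP (MT-ND4, MT-ND3, MT-TK and MT-TW, edgeR adjusted p from 0.00272 to 0.0119), where 7.64% of genes were called. Without siTRAIP replicate 3, 4 rows passed, all higher in siTRAIP, and without siNC replicate 3 another 4 passed, all lower, as given below for each row. Without both libraries, an alternative chosen after seeing the data, 9 rows passed, 5 higher and 4 lower, where 14% of genes tested were called.

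Of the 37 rows, MT-ND6 showed the largest departure of a single library from the others of its group. It stood at 687, 678 and 2281 CPM in siTRAIP libraries 1 to 3, against 463, 581 and 596 CPM in siNC libraries. Every siTRAIP library lay above every siNC library, but siTRAIP replicate 3 was 3.34 times the mean of the other siTRAIP libraries, which lay close together. This gave a log2 fold change of 1.15 (SE 0.61), short of the threshold (edgeR adjusted p = 0.356). Without siTRAIP replicate 3 it was 0.32 (edgeR adjusted p = 0.317). MT-ND6 made up 1.75%, 1.75% and 5.21% of mitochondrial counts in siTRAIP libraries, against 1.29%, 1.503% and 1.61% in siNC libraries.

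The rows on either side of MT-ND6 were also high in siTRAIP replicate 3 before MT-CYB. MT-ND5, which encodes a proton-pumping subunit of complex I, had 4714, 4661 and 7596 CPM in siTRAIP libraries, against 4016, 4479 and 4474 CPM in siNC libraries. The difference of 0.39 on the log2 scale (SE 0.24) missed the threshold (edgeR adjusted p = 0.429), and was 0.12 without siTRAIP replicate 3. MT-TE, the glutamate tRNA on the light strand just beyond MT-ND6, had 13.7, 14.5 and 23.6 CPM in siTRAIP libraries, against 11.1, 13.1 and 12.7 CPM in siNC libraries. Upstream of MT-ND5, the tRNA rows MT-TH (histidine), MT-TS2 (serine) and MT-TL2 (leucine) were 1.75, 1.63 and 1.64 times as high in siTRAIP replicate 3 as in the mean of the other siTRAIP libraries, as was MT-TR (arginine) at 1.59 times. MT-CYB, the next mRNA after MT-TE, had 1480, 1449 and 1460 CPM in siTRAIP libraries, and replicate 3 was 1.00 times the mean of the other 2. MT-CYB stood at 1292, 1403 and 1377 CPM in siNC libraries. Its groups did not overlap, differing by 0.11 on the log2 scale (SE 0.04, edgeR adjusted p = 0.0992), which passed without siTRAIP replicate 3 (0.11, edgeR adjusted p = 0.0301). MT-TT (threonine), beyond MT-CYB, was again higher in siTRAIP replicate 3, at 28.4, 28.8 and 40.5 CPM in siTRAIP libraries, against 26.3, 27.8 and 25.7 CPM in siNC libraries.

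**Figure D2:**
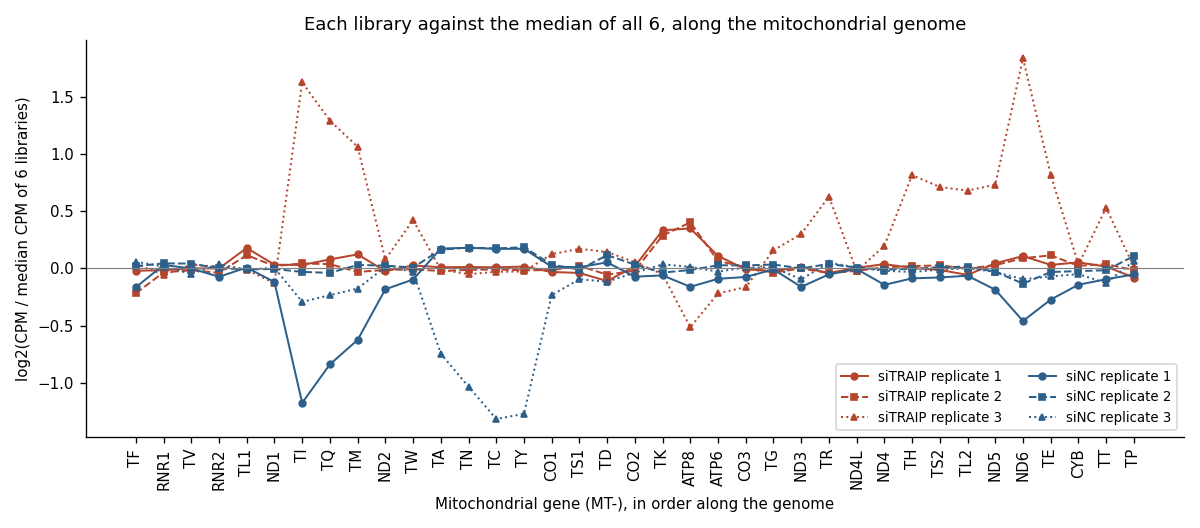
Log2 of each library's CPM over the median of the 6 libraries, for the 37 rows in order along the mitochondrial genome; red lines are siTRAIP libraries, blue lines siNC libraries, with circles, squares and triangles for replicates 1, 2 and 3. Most rows lie near 0, siTRAIP replicate 3 rises at MT-TI to MT-TM and from MT-TH to MT-TE but not at MT-CYB, siNC replicate 1 dips at MT-TI to MT-TM and at MT-ND6, and siNC replicate 3 dips from MT-TA to MT-TY.

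**Figure D3:**
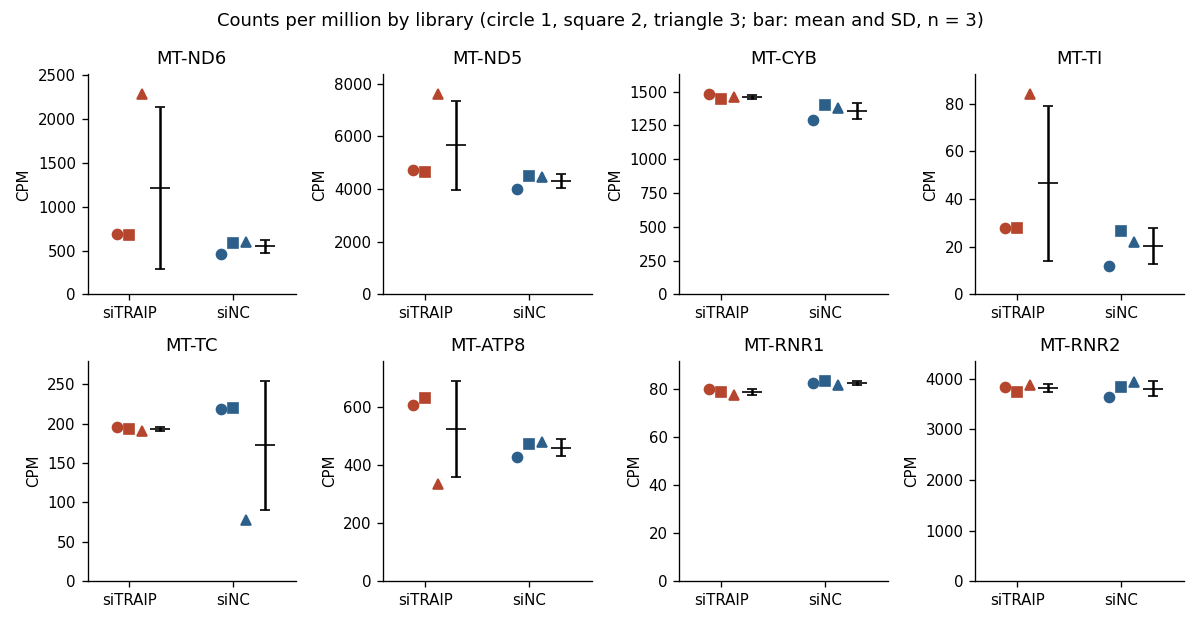
CPM of 8 mitochondrial rows by library, siTRAIP left of siNC, with the mean and SD (n = 3) beside the points; axes start at 0. The triangle of siTRAIP replicate 3 stands at 2281 CPM for MT-ND6 and 334 CPM for MT-ATP8, and that of siNC replicate 3 at 78.1 CPM for MT-TC.

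The same library was high at a separate place, the MT-TI, MT-TQ and MT-TM cluster printed above. MT-TI had 27.7, 27.9 and 83.9 CPM in siTRAIP libraries, against 11.99, 26.5 and 22.1 CPM in siNC libraries. MT-TQ, on the opposite strand, had 19.3, 18.8 and 44.9 CPM in siTRAIP libraries, against 10.2, 17.8 and 15.6 CPM in siNC libraries, and MT-TM had 11.95, 10.7 and 23.0 CPM in siTRAIP, against 7.11, 11.2 and 9.71 CPM in siNC libraries. Like the MT-ND6 row, MT-TQ and the other minus-strand tRNA rows cannot be read as light-strand RNA alone. All 3 rows of this cluster were highest in siTRAIP replicate 3 and lowest in siNC replicate 1. Log2 fold changes were 1.23 (SE 0.64), 0.96 (SE 0.48) and 0.73 (SE 0.40), with edgeR adjusted p from 0.337 to 0.370. Without siTRAIP replicate 3 they were 0.46, 0.39 and 0.28. The flanking MT-ND1 and MT-ND2 rows were 0.90 and 1.07 times the mean of the other siTRAIP libraries in replicate 3.

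A different library stood apart at the MT-TA, MT-TN, MT-TC and MT-TY cluster. MT-TC had 196, 193 and 191 CPM in siTRAIP libraries, against 219, 220 and 78.1 CPM in siNC libraries. MT-TY had 170, 166 and 165 CPM in siTRAIP libraries, against 189, 191 and 69.4 CPM in siNC libraries. MT-TN and MT-TA had 152, 150 and 146 CPM and 130, 127 and 128 CPM in siTRAIP libraries, against 171, 171 and 73.6 CPM and 145, 144 and 76.7 CPM in siNC libraries. In all 4 rows siNC replicate 3 was lowest and the other siNC libraries were above every siTRAIP library, so the groups overlapped. The neighbouring MT-CO1, the catalytic subunit of complex IV, was 0.84 times the mean of the other siNC libraries in siNC replicate 3, and MT-TW (tryptophan), on the other side, was 1.01 times. With all libraries the 4 log2 fold changes were 0.070 to 0.17 (edgeR adjusted p from 0.882 to 0.926). Without siNC replicate 3 all 4 turned to between -0.20 and -0.18 and passed (edgeR adjusted p from 0.00686 to 0.0148), where 8.58% of genes tested were called.

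The ATP synthase stretch went the other way in siTRAIP replicate 3. MT-ATP8, which encodes a small membrane subunit of the ATP synthase, had 609, 631 and 334 CPM in siTRAIP libraries, against 427, 473 and 482 CPM in siNC libraries. Replicates 1 and 2 of siTRAIP lay above all siNC libraries and replicate 3 below them. MT-TK, the lysine tRNA row just before MT-ATP8, had 38.5, 37.3 and 29.5 CPM in siTRAIP libraries, against 29.3, 29.8 and 31.3 CPM in siNC libraries. MT-ATP6, the proton-channel subunit, had 4043, 3919 and 3221 CPM in siTRAIP, against 3518, 3819 and 3675 CPM in siNC libraries, and shares 46 bases with MT-ATP8. With all libraries their log2 fold changes were 0.19 (MT-ATP8, SE 0.28), 0.21 (MT-TK, SE 0.09) and 0.022 (MT-ATP6, SE 0.08), and none passed (edgeR adjusted p = 0.775, 0.153 and 0.916). Without siTRAIP replicate 3 they were 0.43, 0.33 and 0.12 and all passed (edgeR adjusted p = 2.88e-07, 3.12e-05 and 0.0131), together with MT-CYB, where 13.7% of genes tested were called.

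The other heavy-strand mRNAs of complex I and IV varied little. MT-ND4, a core subunit of complex I, had 5155, 5058 and 5761 CPM in siTRAIP libraries, against 4547, 4987 and 4951 CPM in siNC libraries. These groups did not overlap, and the log2 fold change of 0.14 (SE 0.05) had the smallest adjusted p of the 37 rows (edgeR adjusted p = 0.0699). It was 0.080 without siTRAIP replicate 3 (edgeR adjusted p = 0.128), and 0.14 with every gene with a count above 0 kept, where it passed (edgeR adjusted p = 0.00272). MT-ND3, another complex I subunit, also showed no overlap, with 653 to 805 CPM in siTRAIP and 584 to 652.8 CPM in siNC libraries, and differed by 0.20 on the log2 scale (SE 0.09, edgeR adjusted p = 0.211), or by 0.090 without siTRAIP replicate 3 (edgeR adjusted p = 0.130). MT-ND1, MT-ND2, MT-ND4L, MT-CO1, MT-CO2 and MT-CO3 overlapped between groups, with log2 fold changes from -0.039 (MT-CO3) to 0.085 (MT-CO1). Within each group, no library of these 8 rows was further than 1.23 times or below 0.84 times the mean of the other 2.

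Neither rRNA row passed the test. MT-RNR1 had 79.8, 78.8 and 77.5 CPM in siTRAIP libraries, against 82.4, 83.2 and 81.6 CPM in siNC libraries, and was the only row whose siTRAIP values all lay below the siNC values. At -0.066 on the log2 scale (SE 0.04) it missed the threshold (edgeR adjusted p = 0.363). It passed when library sizes were used without TMM factors (-0.13, edgeR adjusted p = 0.0462), a scaling under which the median of all genes was -0.062. MT-RNR2 had 3836, 3735 and 3874 CPM in siTRAIP libraries, against 3647, 3838 and 3932 CPM in siNC libraries, and differed by 0.0036 on the log2 scale (SE 0.04, edgeR adjusted p = 0.9745). In no library did an rRNA row leave 0.94 to 1.05 times the mean of the other 2 of its group, including siTRAIP replicate 3.

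Ratios within a library, which do not depend on library size, set MT-ND6, the rRNAs and the tRNAs against the summed counts of the 12 heavy-strand mRNAs. The log2 ratio for MT-ND6 was -5.58, -5.59 and -3.96 in siTRAIP libraries, against -6.02, -5.80 and -5.71 in siNC libraries. The siTRAIP mean lay 0.80 above the siNC mean on the log2 scale, or 0.26 above without siTRAIP replicate 3. Groups did not overlap, and the exact permutation test gave p = 0.1, the smallest value it can give with 3 libraries a side (2-sided, adjusted p = 0.2 over 4 comparisons). For the rRNAs the log2 ratio was -3.07, -3.10 and -3.17 in siTRAIP libraries, against -3.01, -3.05 and -2.96 in siNC libraries. It was lower in siTRAIP by a difference of -0.11, without overlap (exact permutation p = 0.1, adjusted p = 0.2). MT-ND5, high in siTRAIP replicate 3, is part of the heavy-strand sum, and with MT-ND5 and MT-CYB left out of that sum the rRNA difference was -0.053 (exact permutation p = 0.2). For the tRNAs the log2 ratio was -4.35, -4.35 and -4.13 in siTRAIP libraries, against -4.21, -4.25 and -4.64 in siNC libraries. The groups overlapped (difference 0.090, exact permutation p = 0.8, adjusted p = 0.8), and the difference was -0.047 without siNC replicate 3. Scaled to the heavy-strand mRNAs in an edgeR fit over 18656 features, 0 of 37 rows passed, with 15.1% of all features called.

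**Figure D4:**
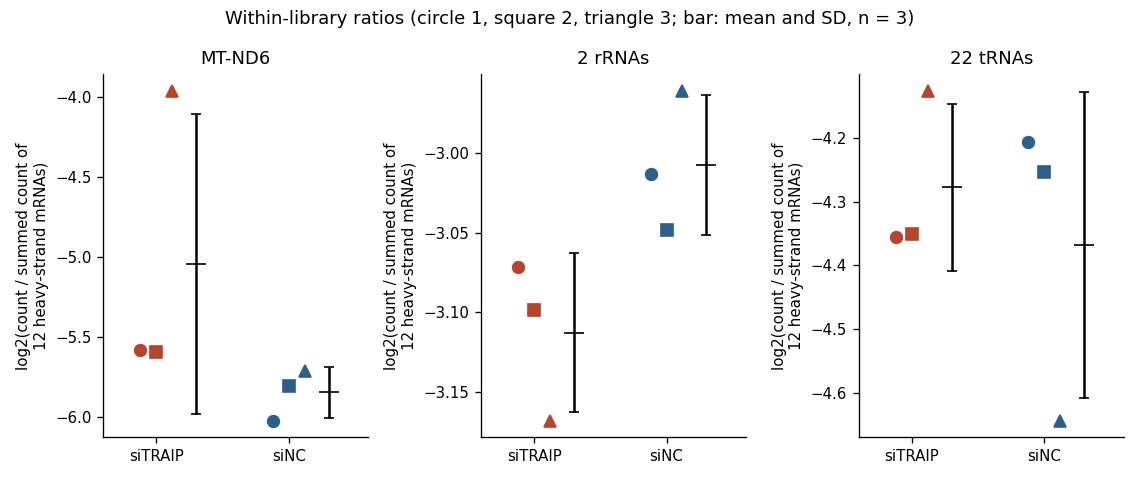
Log2 of the count of MT-ND6, of the 2 rRNAs and of the 22 tRNAs over the summed count of the 12 heavy-strand mRNAs, per library, siTRAIP left of siNC, with mean and SD (n = 3). MT-ND6 lies higher in all 3 siTRAIP libraries, with replicate 3 at -3.96 apart from the others, the rRNAs lie lower, and the tRNAs overlap.

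All mitochondrial rows together took 3.801%, 3.83% and 4.29% of gene counts in siTRAIP libraries, against 3.68%, 3.91% and 3.82% in siNC libraries. The 95% Wilson intervals, which cover counting error only, reached at most 0.00599 percentage points to either side. The means were 3.97 ± 0.274% in siTRAIP and 3.801 ± 0.114% in siNC libraries (SD, n = 3 each), and the groups overlapped (exact permutation p = 0.5, adjusted p = 0.667). Without siTRAIP replicate 3 the difference was 0.014 percentage points, against 0.172 with it. In bulk RNA a change in this share cannot be told apart from a change in nuclear RNA per cell or in the number of cells of a kind.

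**Figure D5:**
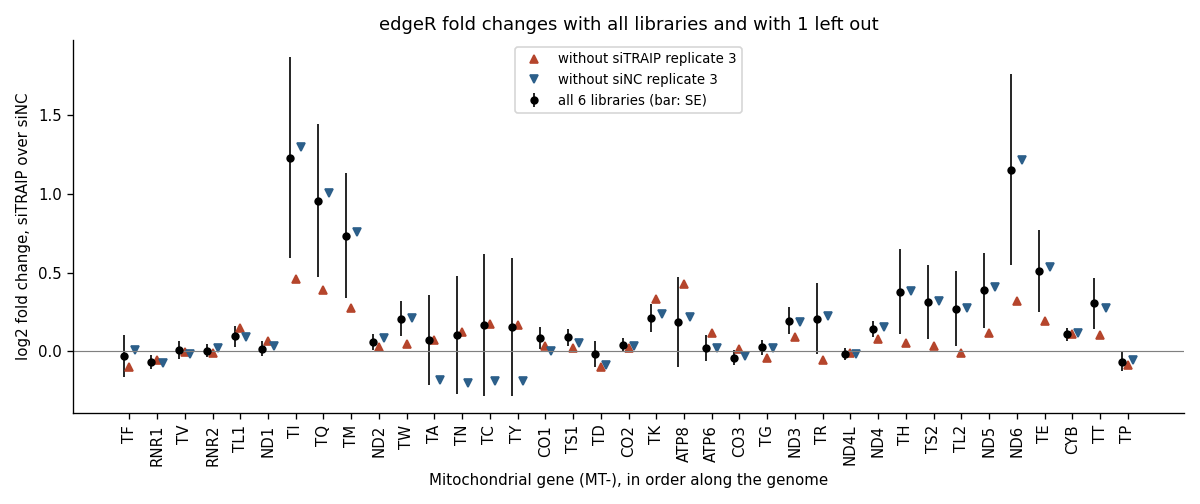
Log2 fold change of siTRAIP over siNC from edgeR for the 37 rows in genome order, with all 6 libraries (black, bar: SE), without siTRAIP replicate 3 (red, pointing up) and without siNC replicate 3 (blue, pointing down). MT-ND6 lies at 1.15 with all libraries and 0.32 without siTRAIP replicate 3, and MT-TA to MT-TY change sign without siNC replicate 3.

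Single libraries that stood apart were also counted across nuclear genes. In siTRAIP replicate 3, 10 of 37 rows (27.0%) were at least 1.5 times the mean of the other siTRAIP libraries, and MT-ATP8 was at least 1.5 times lower. Of 10662 nuclear genes with a mean of at least 5 CPM, 0.113% were as high and 0.197% as low in that library. In siNC replicate 3, 4 of 37 rows (10.8%) and 0.141% of these nuclear genes were at least 1.5 times lower than in the other siNC libraries. Mitochondrial rows were more often apart than nuclear genes in the remaining libraries too, counting both directions. Shares were 8.11% against 0.103% in siTRAIP replicate 1 and 10.8% against 0.0750% in siTRAIP replicate 2. They were 5.41% against 0.0563% in siNC replicate 1 and 2.70% against 0.0188% in siNC replicate 2. These shares are descriptions, since the limit was set after the values were seen, and adjacent rows can share reads. The siTRAIP replicate 3 library also had 4.91 CPM summed over the fibroblast markers, against 1.03 and 1.120 CPM in the other siTRAIP libraries and 1.19 to 1.34 CPM in siNC libraries. COL1A1, a collagen gene, made up most of this, and 3 of the 5 fibroblast markers have a row. RN7SK, a small nuclear RNA without a poly(A) tail, had 0.684, 0.395 and 1.77 CPM in siTRAIP libraries, against 0.139, 0.253 and 0.268 CPM in siNC libraries. Their part in the mitochondrial values was not tested.

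Nuclear copies of mitochondrial DNA, which are near-identical to parts of it and can share its reads, had rows of their own. The table held 107, of which 16 were tested. In edgeR 0 passed, against 12.8% of all genes, 2 had an unadjusted p under 0.05, against 24.8%, and DESeq2 called 0. Their summed level was 1241, 1218 and 1014 CPM in siTRAIP libraries, against 1094, 1211 and 1176 CPM in siNC libraries. MTATP6P1, the highest, had 809, 770 and 568 CPM in siTRAIP libraries, against 675, 756 and 736 CPM in siNC libraries, and was lowest in siTRAIP replicate 3, like MT-ATP6. The next highest were MTND2P28, with 337 to 366 CPM in siTRAIP and 338 to 366 CPM in siNC libraries, and MTCO1P12, with 47.1 to 66.5 CPM in siTRAIP and 51.0 to 58.8 CPM in siNC libraries. MTND1P23 reached 13.8 CPM and MTCO3P12 11.2 CPM in the highest library. MTND6P4, a copy of MT-ND6 on chromosome 5 named after its values were seen, had 8, 22 and 74 counts in siTRAIP libraries, against 10, 15 and 22 counts in siNC libraries. These counts are low and not scaled to library size. Library totals were 39111793, 46102683 and 70439496 gene counts in siTRAIP, against 56041110, 54818483 and 58066330 in siNC libraries.

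A list of 47 nuclear genes held 18 of mitochondrial transcription and replication, 23 of RNA processing and decay, and 6 regulators of nuclear genes for mitochondria. Of these, 46 were tested, and 4 rose and 3 fell with siTRAIP, against 12.8% of all genes called. The median log2 fold change of the 46 was -0.0010, against -0.0017 over all genes. Among the 18 genes of transcription and replication, the 4 that rose were C10orf2, which encodes the mitochondrial replicative helicase Twinkle, TOP1MT, the mitochondrial topoisomerase, RNASEH1, a nuclease that removes RNA from RNA-DNA hybrids, and MTERF4, a factor of mitochondrial ribosome assembly. C10orf2 had 227, 219 and 261 CPM in siTRAIP libraries, against 196, 199 and 180 CPM in siNC libraries, a difference of 0.30 on the log2 scale (SE 0.06, edgeR adjusted p = 0.00331). The log2 fold changes of the others were 0.23 (MTERF4), 0.19 (TOP1MT) and 0.17 (RNASEH1). These 4 rises missed the threshold with limma on RPKM (limma adjusted p from 0.0715 to 0.112). SSBP1, the single-strand binding protein of mitochondrial DNA, fell, with 103, 102 and 111 CPM in siTRAIP libraries, against 120, 128 and 112 CPM in siNC libraries (log2 fold change -0.19, SE 0.05, edgeR adjusted p = 0.0139). That call was lost without siTRAIP replicate 1 or 2 or without siNC replicate 2 (edgeR adjusted p from 0.0721 to 0.127). MTERF3, a relative of the mitochondrial termination factor, fell by 0.20 on the log2 scale (edgeR adjusted p = 0.0422), and of the 6 fits with a library left out it passed in that without siTRAIP replicate 2. Of the 23 genes of RNA processing and decay, TRMT10C, a subunit of the RNase P that cuts the 5′ ends of mitochondrial tRNAs, fell alone, at 70.4, 71.4 and 65.4 CPM in siTRAIP libraries, against 77.3, 79.7 and 76.2 CPM in siNC libraries (log2 fold change -0.17, SE 0.05, edgeR adjusted p = 0.0145). The TRMT10C call was lost without siNC replicate 1 or 2 (edgeR adjusted p = 0.0506 and 0.0872). Of 5 tested regulators of such nuclear genes, 0 passed in edgeR, 1 had an unadjusted p under 0.05, against 24.8% of all genes, and DESeq2 called 0.

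Nuclear-encoded RNAs that carry no poly(A) tail were also counted in these libraries made with an mRNA kit. Apart from RPPH1, whose values are given below, those listed reached at most 1.77 CPM in any library. Of the 6 listed, 4 were tested, and RN7SK and RPPH1 passed in edgeR, where 12.8% of all genes did. DESeq2 called 1 of the 4, RPPH1, and gave no adjusted p for RN7SK, so it did not decide on that gene. RPPH1, the RNA of nuclear RNase P, had 23.1, 26.4 and 27.2 CPM in siTRAIP libraries, against 23.1, 21.6 and 22.1 CPM in siNC libraries (log2 fold change 0.20, SE 0.06, edgeR adjusted p = 0.0398), and passed in 1 of 6 fits with a library left out. RN7SK was higher by 2.17 on the log2 scale (SE 0.55, edgeR adjusted p = 0.0275), and by 1.27 without siTRAIP replicate 3 (edgeR adjusted p = 0.0692). The RN7SK call was also lost without siNC replicate 1, 2 or 3 (edgeR adjusted p = 0.181, 0.147 and 0.118), with halved counts (edgeR adjusted p = 0.0824) and in both limma fits on RPKM. Of 64 histone genes, whose mRNAs end in a stem-loop, 26 were tested. In edgeR 0 passed, against 12.8% of all genes, 4 had an unadjusted p under 0.05, against 24.8% of all genes, and DESeq2 called 0. DESeq2 gave no adjusted p for HIST1H2BC and HIST2H2BD, the histone genes with the smallest edgeR adjusted p. Counts of the histone genes summed to 16.7 to 18.1 CPM in siTRAIP and 19.2 to 20.3 CPM in siNC libraries. The 6 RNAs without a tail summed to 24.8, 28.3 and 30.7 CPM in siTRAIP libraries, against 24.4, 23.4 and 23.6 CPM in siNC libraries.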

How the data were processed

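Gene counts of 3 siTRAIP and 3 siNC libraries were taken as deposited, unnormalized, and RPKM values as the authors scaled them. Per the submitters' processing notes, reads were trimmed with Trimmomatic 0.36 and counted with featureCounts (Subread 1.5.1) on GRCh38; no source used here gives the aligner, annotation release, read length or counting options. Among counts from 1 to 10, 70.2% were even, against 50.8% above 1000, so a count may stand for 1 read of a pair. Groups come from the sample titles. Groups were compared by edgeR 4.0.16 under R 4.3.3 (filterByExpr, TMM, quasi-likelihood F-test, robust=TRUE, 2-sided, Benjamini-Hochberg over 18685 genes, threshold 0.05), and DESeq2 1.42.0 and limma 3.58.1 were alternatives. Ratios within libraries were compared with exact permutation tests over libraries. The edgeR script was tested on simulated data. Replicates of a group differed by more than the sampling noise of independent counts (chi-square per degree of freedom 3.23 to 17.1, highest where siTRAIP replicate 3 was compared). The members and lists were chosen with earlier results of these data known. Any mitochondrial row could be named, nuclear list genes by passing the threshold, others by level or smallest adjusted p. Alternatives are in the closing section.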

Additional observations from a re-analysis of the deposited data

How the results depend on the processing

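Of 923 fold changes of 49 named genes under the alternatives, 803 kept their direction and side of the threshold, 42 lost and 23 gained a call, and 55, in 18 genes, changed sign, with 0 of these for a gene called with all libraries. The 2393 genes called became 1521 and 1517 with limma on RPKM at pseudocounts of 0.1 and 1, and 1480 to 2622 with a library left out. The 0 mitochondrial rows called became 1 with library size only and 1 under both limma fits (MT-RNR1), 4 with any count above 0 kept (MT-ND4, MT-ND3, MT-TK, MT-TW), 5 with non-robust dispersion, 0 to 4 with a library left out, and 9 with both siTRAIP replicate 3 and siNC replicate 3 left out, an alternative chosen after seeing the data. The 7 nuclear list genes called became 11 with library size only, 3 under both limma fits, 5 to 8 with a library left out, and 11 without replicate 3 of both groups. The share of all genes called also moved, from 12.8% to 15.4% with library size only and to 8.14% and 8.12% with limma. It was 7.64% with any count above 0 kept, 12% with non-robust dispersion, 7.74% to 13.7% with a library left out, and 14% without replicate 3 of both groups. The cause was not tested.

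With library size only, where the median of all genes lay at -0.062, and with limma at 0.1 and 1, signs turned for MT-TV (-0.051, -0.053, -0.052), MT-RNR2 (-0.057, -0.056, -0.056), MT-ND1 (-0.045, -0.045, -0.045), MT-CO2 (-0.017, -0.017, -0.017), MT-ATP6 (-0.038, -0.044, -0.044) and MT-TG (-0.035, -0.039, -0.039), and with halved counts for MT-RNR2 (-0.000221). Without replicate 3 of both groups they turned for MT-TV (-0.032), MT-TA (-0.18), MT-TN (-0.18), MT-TC (-0.18), MT-TY (-0.18), MT-CO1 (-0.050), MT-TS1 (-0.010), MT-CO3 (0.022), MT-TG (-0.046), MT-TR (-0.038), MT-TL2 (-0.0068) and the tRNA ratio (-0.12). With 1 library left out, the tRNA ratio ranged from -0.047 to 0.17, and the sign turned in at least 1 fit for MT-TF from -0.099 to 0.039, MT-TV from -0.018 to 0.027, MT-RNR2 from -0.029 to 0.025, MT-ND1 from -0.026 to 0.065, MT-ND2 from -0.0065 to 0.093, MT-TA from -0.18 to 0.21, MT-TN from -0.20 to 0.28, MT-TC from -0.19 to 0.38, MT-TY from -0.19 to 0.36, MT-TD from -0.10 to 0.033, MT-ATP6 from -0.040 to 0.12, MT-CO3 from -0.072 to 0.014, MT-TG from -0.042 to 0.060, MT-TR from -0.054 to 0.32 and MT-TL2 from -0.013 to 0.40.

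The fit with the replicate block called 2145 genes, 0 mitochondrial rows and 6 nuclear list genes. Paired by number, sign permutation gave exact p = 0.25 for the MT-ND6 ratio (0.80) and the rRNA ratio, the smallest value that test can give here. Same-numbered libraries were correlated by -0.018 to 0.0014 in their deviations from group means and none correlated best with its own number, so the numbers were not taken to pair samples.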
